A study of Mus musculus with 8 samples.

Results

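The cells described here are conventional alpha-beta T cells from mouse brain whose T cell receptor was found in a single cell of its library. A cell was taken when it had exactly 1 productive TRB chain (beta) and 1 or 2 productive TRA chains (alpha), and when no alpha chain joined TRAV11 or TRAV11D to TRAJ18, the invariant rearrangement of iNKT cells. Cells were then counted per deposited clonotype within each library, and clonotypes with 1 cell were kept. The members were thus selected on clone size, a count of cells in these same libraries. This gave 2586 single-cell clones out of 4612 conventional T cells in 3015 clones, and out of 6686 cell barcodes with a receptor chain. The other 2026 conventional cells fell into 429 expanded clones of 2 or more cells.

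The study used C57BL/6 mice, sorted leukocytes (CD45+) out of brain parenchyma and read gene expression and T cell receptors cell by cell, to ask how the chemokine receptor CXCR6 bears on T cells that live in the brain. There were 2 receptor libraries from 5xFAD mice and 2 from 5xFAD;Cxcr6-/- mice. Both genotypes carry the 5xFAD transgenes, which model familial Alzheimer's disease and are driven by a neuronal Thy1 promoter. Mice without the transgenes were not analysed here, and the labels used give no age and do not say whether a library is 1 mouse or a pool. Gene expression libraries were not used here, so the loss of Cxcr6 was not checked, and CD4 and CD8 cells cannot be told apart from receptor chains.

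A T cell builds each receptor chain in the thymus by cutting and joining germline segments: V to J for alpha, and V to D to J for beta. At each joint an exonuclease trims the segment ends, opened hairpins can leave short palindromic P nucleotides, and the enzyme TdT adds untemplated N nucleotides, so most of the variety sits in the CDR3 loop that contacts the peptide. The alpha locus can recombine repeatedly on 1 chromosome, each round taking V segments farther upstream and J segments farther downstream. A chain whose CDR3 can be read from germline segments alone is called germline-like, and such chains are known to be made often and to recur between individuals.

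The sequences below show what germline-like means in these cells. They are the 5 germline-like alpha CDR3s found in most libraries, then in most members, with ties in alphabetical order. They are read 5′ to 3′ from the conserved cysteine codon, in lower case throughout because no base lies outside the V and J germline ends.
TRAV14N-3 with TRAJ22: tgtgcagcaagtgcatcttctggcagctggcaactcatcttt
TRAV1 with TRAJ33: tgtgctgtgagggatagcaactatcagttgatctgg
TRAV14D-3-DV8 with TRAJ22: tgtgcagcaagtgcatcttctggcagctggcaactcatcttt
TRAV9D-3 with TRAJ9: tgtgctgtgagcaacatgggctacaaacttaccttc
TRAV21-DV12 with TRAJ57: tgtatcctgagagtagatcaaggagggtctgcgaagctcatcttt
The first was found in 6 members from 3 libraries, and the third, which has the same letters under another V name, in 3 members from 2 libraries. In both, 13 bases come from the V end (tgtgcagcaagtg) and 29 from the J start (catcttctggcagctggcaactcatcttt), which together make the 42 bases of the loop. The TRAV1 with TRAJ33 chain is the invariant alpha chain of MAIT cells, and it was carried by 4 members, all from the 5xFAD libraries.

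Beta chains have a D segment between V and J. Capitals below mark the bases that neither the V end nor the J start covers. The germline D segments are printed first because in a germline-like beta chain the capitals must be found whole in 1 of them.
TRBD1: gggacagggggc
TRBD2: gggactgggggggc
TRBV13-2 with TRBJ2-7: tgtgccagcggtgaAtatgaacagtacttc
TRBV17 with TRBJ1-1: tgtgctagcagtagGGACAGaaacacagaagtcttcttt
TRBV1 with TRBJ2-2: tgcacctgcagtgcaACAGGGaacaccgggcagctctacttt
TRBV1 with TRBJ1-4: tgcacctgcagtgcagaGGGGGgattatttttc
TRBV12-2 with TRBJ2-7: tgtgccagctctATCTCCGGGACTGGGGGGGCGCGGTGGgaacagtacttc
Among the 2484 members with a matched V end, the first of these beta chains was the only CDR3 nucleotide sequence found in 2 libraries under the same V and J names. It has 1 base outside V and J. Any single base is found in TRBD2, so such a base does not point to a D segment. The last of the printed beta chains is not germline-like and is shown as the opposite extreme. It holds 27 bases outside V and J, the most of the 2484 members with a matched V end. The TRBV1 chains were found in 1 member each and were taken by alphabetical order among ties. Only 2 of 220 distinct germline-like beta sequences were found in 2 or more members.

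Clone size chose the members, so the following counts describe them and are not tested. There were 664 single-cell clones in 5xFAD library 1 and 811 in 5xFAD library 2, against 379 and 732 in 5xFAD;Cxcr6-/- libraries 1 and 2. As a share of conventional cells these were 50.5%, 46.96%, 69.7% and 71.3%. Just outside the rule, 48, 94, 28 and 51 clones had exactly 2 cells. A single-cell clone is unexpanded only as far as sampling shows: 120 members (4.64%) had a beta chain that also occurred in another barcode of the library, and 84 belonged to a clonotype that also held a barcode without a usable chain set.

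The libraries held between 13460 and 34772 UMIs in total. The median UMI count of a single-cell clone's beta chain was 9, 9, 10 and 11 in the 4 libraries, and that of its alpha chain was 4, 3, 4 and 4. All contigs were TRA or TRB chains, so B cells and gamma-delta T cells, whose chains were at 0 contigs, were outside the measurement. The 4 libraries shared 28 cell barcodes, which touched 19 members. In 0 of those 28 barcodes was a CDR3 nucleotide sequence the same in both libraries. MAIT-like alpha chains were present in 2 and 6 members from 5xFAD and in 0 of 379 and 0 of 732 from 5xFAD;Cxcr6-/-, where 0 allows shares of up to 0.792% and 0.410% (3 counts of the total). No test was made between these counts. These limits and all intervals below cover counting error only.

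The members used 22 TRBV, 12 TRBJ, 88 TRAV and 43 TRAJ labels, and no single V segment dominated. Among beta V labels TRBV3 led by mean share with 8.53% ± 1.54 of members (SD, n = 4 libraries). It was followed by the joined label TRBV12-2+TRBV13-2 with 8.46% ± 1.497 and TRBV19 with 7.93% ± 0.940. These 3 levels do not differ beyond their spread. The 728 contigs under the joined label all carried the framework sequence of TRBV13-2 and 0 carried that of TRBV12-2. Read as 1 segment, TRBV13-2 therefore had more members than TRBV3: 215 under the joined label and 55 under its own name, against 214. The joined label was counted in the TRBV13 family (Vbeta8 in the older naming). That family made up 23.5% and 25.2% of members for 5xFAD and 22.2% and 23.0% for 5xFAD;Cxcr6-/-.

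Fewer J than V segments were available, and the leading J segments took larger shares. TRBJ2-7 alone served 21.5% ± 0.912 of members and TRBJ2-5 served 11.5% ± 1.27 (SD, n = 4 libraries). The TRBJ2 cluster as a whole took 64.6%, 67.6%, 62.5% and 65.8% of beta chains in the 4 libraries. Among alpha segments TRAV6-6 was found in 4.88% ± 0.353 of members, TRAV13-1 in 3.91% ± 0.830 and TRAV16N in 3.89% ± 0.586. TRAJ22 was found in 7.52% ± 0.563 and TRAJ31 in 5.34% ± 1.04. Many TRAV segments are near-identical copies, named with D or N, and reads cannot always be assigned to 1 copy, so single TRAV values are uncertain.

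Diversity of use was high in every library. The effective number of TRAV segments (the number of equally used segments with the same Shannon entropy) was 64.5 and 62.0 for 5xFAD and 57.2 and 61.0 for 5xFAD;Cxcr6-/-. It was 61.4, 58.4, 57.2 and 57.8 when each library was thinned to the 379 clones of the smallest. The groups did not overlap with or without thinning. Without thinning the exact permutation p was 0.333, the smallest that 2 against 2 libraries can give, and the adjusted p was 0.963 over 13 measures. Of these measures, the TRAJ58 to TRAJ40 share and the beta loop charge, both given below, also separated the groups, and the others overlapped. The effective number of TRBV segments was 19.0, 18.7, 18.8 and 19.4, with overlapping groups.

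No segment passed the test between the genotypes. edgeR's quasi-likelihood F test on clone counts called 0 of 149 segments at an adjusted p under 0.05 (0% called). At an unadjusted p under 0.05 it gave 4 segments, all lower in 5xFAD;Cxcr6-/-, and DESeq2 gave 0 adjusted and 0 unadjusted. The segments with the smallest p in each direction are described next, with values that did not pass the test.

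TRAV9D-3 (GRCm38, chromosome 14, 52920443 to 52921112) was found in 3.77% and 3.95% of members for 5xFAD and in 2.64% and 1.91% for 5xFAD;Cxcr6-/-, a log2 difference of -0.83 (SE 0.26, edgeR adjusted p = 0.914). TRAJ16 (chromosome 14, 54203134 to 54203194) was in 1.96% and 1.73% against 0.528% and 0.820%, a log2 difference of -1.32 (SE 0.42, edgeR adjusted p = 0.914). The groups did not overlap for either segment, but both were picked for their small p. Non-overlap also held for other segments, such as TRBV1, TRBV13-1, TRAJ9 and TRAJ33, so it does not set TRAV9D-3 and TRAJ16 apart. How many of all tested segments separate in this way was not counted. TRAV16D-DV11 (chromosome 14, 53047287 to 53047821) was in 1.51% and 1.11% against 0% and 0.410%, where 0 of 379 allows up to 0.792%. Its pooled counts were 19 of 1475 members against 3 of 1111, a ratio of 0.210 with a counting interval of 0.040 to 0.712. That interval counts clones and leaves out the spread between libraries. The segment was also picked for its small p, so the interval is no test of genotype. The fitted log2 difference was -2.18 (SE 0.75, edgeR adjusted p = 0.914). It was -0.89 with at least 3 UMIs per chain and -1.61 without 5xFAD;Cxcr6-/- library 1. Without 5xFAD;Cxcr6-/- library 2 the remaining library is at 0 and no fold can be given. In the opposite direction TRAV19 was in 0.904% and 0.863% against 2.64% and 1.37% (log2 1.01, SE 0.46). TRBV12-2 (chromosome 6, 41118851 to 41119364) was in 3.92% and 4.19% against 6.07% and 5.46% (log2 0.48, SE 0.19). TRBV10 (chromosome 6, 41091940 to 41092228) was in 3.31% and 3.33% against 4.75% and 4.78% (log2 0.52, SE 0.20). The adjusted p of these 3 was also 0.914 (edgeR). Without 5xFAD;Cxcr6-/- library 2 the log2 difference of TRAV9D-3 was -0.55, and that of TRAV19 ran from 0.62 without 5xFAD;Cxcr6-/- library 1 to 1.56 without library 2. TRBV10 is annotated as a pseudogene in the reference used, while the deposited contigs call it productive.

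**Figure D1:**
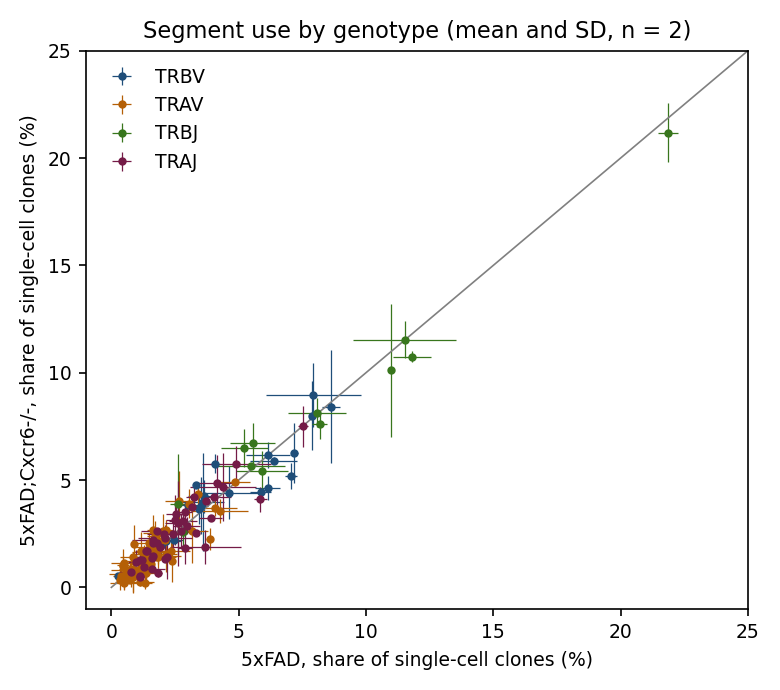
Mean share of single-cell clones that use each V or J segment, in 5xFAD (x axis, %) and 5xFAD;Cxcr6-/- (y axis, %), with bars for the SD of 2 libraries and a line of equal use. Segments with at least 10 members are shown, and TRBJ2-7 stands alone near 21.5%, while every other segment shown lies under 12% in both genotypes.

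No V-J pair passed that test either. Of 112 V-J pairs with at least 10 members, edgeR called 0 between the genotypes (0% called), with 3 at an unadjusted p under 0.05, 1 higher and 2 lower in 5xFAD;Cxcr6-/-. DESeq2 gave 0 adjusted and 0 unadjusted. The share of alpha chains with an upstream TRAJ segment (TRAJ58 to TRAJ40) was 25.4% and 25.3% for 5xFAD and 27.1% and 29.3% for 5xFAD;Cxcr6-/-. The share with a downstream segment (TRAJ20 to TRAJ2) was 26.2% and 24.6% against 21.6% and 21.4%. The groups did not overlap, but the first difference of 2.85 percentage points had an exact permutation p of 0.333, the smallest possible, and an adjusted p of 0.963 over 13 measures.

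V and J use were linked along the alpha locus. On mouse chromosome 14 the TRAV segments lie upstream of the TRAJ array, which runs from TRAJ58, nearest to V, to TRAJ2. The 30 TRAV segments nearest to the array were joined to TRAJ58 to TRAJ40 in 44.0% of their 1283 chains. The 29 segments farthest away did so in 12.5% of 727 chains, and the 29 in the middle in 12.5% of 831 chains. TRAJ20 to TRAJ2 showed the opposite pattern, with 10.8% of chains from the nearest segments, 33.0% from the middle and 35.8% from the farthest. The median TRAJ number was 37 for the nearest segments and 23 for the other two groups.

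The contrast of the nearest segments with the rest was present in all 4 libraries, while the middle and farthest segments changed order between libraries. The nearest TRAV segments used TRAJ58 to TRAJ40 in 41.5% and 43.3% of chains for 5xFAD and in 45.3% and 46.2% for 5xFAD;Cxcr6-/-. The farthest segments did so in 13.7%, 11.9%, 8.51% and 14.0%. Over chains, the rank correlation of V and J position along the chromosome was -0.43, -0.44, -0.53 and -0.45 in the 4 libraries, where a negative value means that V segments near the array join J segments near V. Over all 2841 alpha chains it was -0.45. In the 373 chains left after dropping V segments named with D or N, and those sharing a base name with them, it was -0.64. These 373 still include V segments with a DV suffix that have copies, such as TRAV6-7-DV9 (63 chains) and TRAV4-4-DV10 (43 chains). Position is therefore not sure for all of them. The correlations are descriptions over chains that share libraries and segments.

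**Figure D2:**
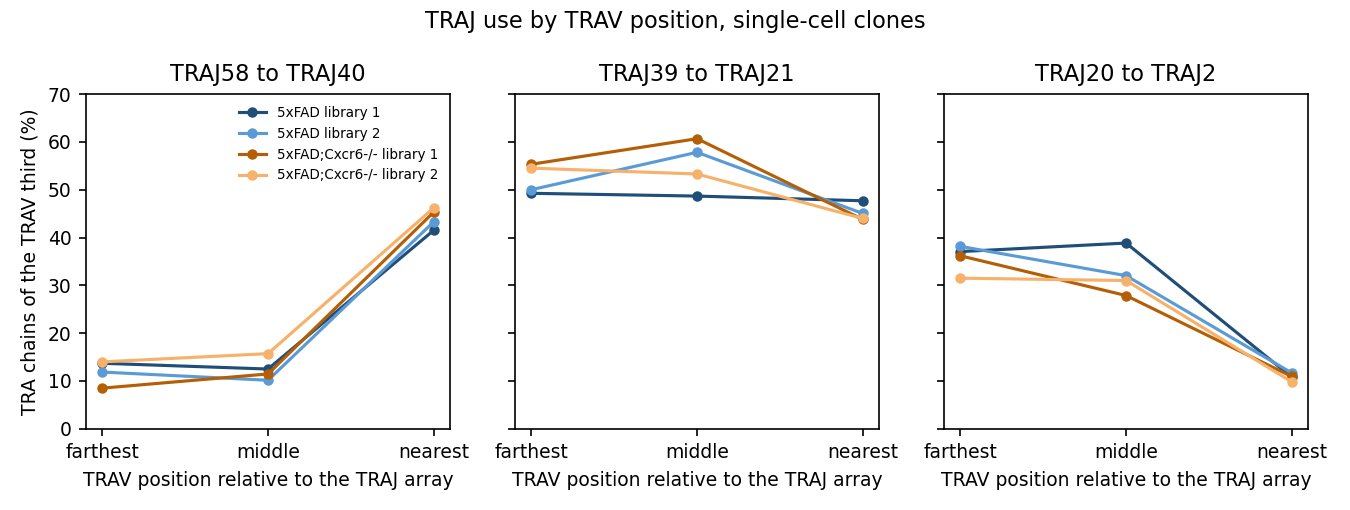
Share of alpha chains (y axis, %) that use TRAJ58 to TRAJ40, TRAJ39 to TRAJ21 or TRAJ20 to TRAJ2, for TRAV segments farthest from, midway to and nearest to the TRAJ array (x axis), with 1 line per library. In each library the nearest segments have the highest share of TRAJ58 to TRAJ40, from 41.5% to 46.2%, and the lowest share of TRAJ20 to TRAJ2.

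Cells with 2 alpha chains gave a second view of the same locus, since each cell can rearrange both of its chromosomes. Whether any of them are doublets was not tested. There were 255 such members, 9.95% ± 1.52 of clones per library (SD, n = 4). Their alpha chains differed by a median of 7 in TRAJ number. Alpha chains of different 2-alpha clones of the same library differed by a median of 13. A gap of 10 or less was found in 71.0% of the members with 2 alpha chains and in 40.6% of the 34068 pairs between clones.

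The beta locus showed no such order. The rank correlation of TRBV and TRBJ position was -0.07, -0.03, -0.06 and -0.03 in the 4 libraries (2484 chains, without TRBV31, which lies downstream of the J clusters in inverted orientation). Of 264 possible TRBV-TRBJ pairs, 246 were seen, and 13 of these only once. Expected counts were set from the product of the V and J shares within each library. Among 186 pairs with at least 5 expected members, 176 (94.6%) lay within 2-fold of expectation.

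On the same side of expectation in all 4 libraries were 31 of these 186 pairs, 10 above and 21 below. With only 4 libraries, some pairs fall on 1 side in all of them without any departure, and no test was made. The extremes among them are given as a description. TRBV3 with TRBJ1-6 was never seen, against 5.80 expected members. The joined label TRBV12-2+TRBV13-2 with the same TRBJ1-6 was seen in 14 members against 5.81 expected, with 4, 3, 4 and 3 in the libraries. TRBV3 with TRBJ1-3 was seen in 20 members against 12.1 expected, and TRBV10 with TRBJ1-3 in 2 against 5.62.

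Matches to the D segments differed between the J clusters of the beta locus, where TRBD1 lies upstream of both J clusters and TRBD2 lies between them. A match was recorded where at least 6 bases outside V and J matched 1 D better than the other. Chains with a TRBJ1 segment matched TRBD1 in 394 of 426 cases and TRBD2 in 32 (7.51%). Chains with a TRBJ2 segment matched TRBD2 in 665 of 1032 cases (64.4%) and TRBD1 in 367. TRBD2 cannot join TRBJ1 by ordinary deletion, and since the D segments share runs of G, a match describes the letters and does not assign the D. The deposited D calls, which were fewer, gave TRBD2 in 3 of 178 TRBJ1 chains. In TRBJ2 chains they put TRBD1 ahead, with 217 of 418 against 201 for TRBD2, so which D led there differed between the deposited calls and the letter match.

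Alpha V-J combinations were sparse: 1474 of 3784 possible were seen, 806 of them once. Among 10 pairs with at least 5 expected members, 6 lay within 2-fold of expectation. On the same side in all 4 libraries were 4 of these 10 pairs, 2 above and 2 below. As for the beta pairs, this can happen without any departure, and no test was made. The pairs named next have the most members or are extremes among these. TRAJ22 and TRAV14N-3 met in 13 members against 3.67 expected, and TRAJ22 and TRAV3D-3 in 13 against 5.52. TRAV6-6 with TRAJ22 was seen in 4 members against 8.45 expected, and TRAV7D-2 with TRAJ22 in 2 against 6.04. TRAV21-DV12 with TRAJ56 was seen in 11 members against 0.869 expected, with 1, 3, 4 and 3 in the libraries. Its 11 CDR3s were all different, 13 to 17 residues long, and 2 of them were germline-like. TRAV21-DV12 is among the V segments nearest to the TRAJ array and TRAJ56 is near its upstream end.

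Alpha and beta V segments paired broadly. Of 1936 possible TRAV-TRBV pairs, 1127 were seen and 425 of them once, and 58 of 67 pairs with at least 5 expected members lay within 2-fold of expectation. On the same side in all 4 libraries were 8 of these 67 pairs, 3 above and 5 below. Here too this can happen without any departure, and no test was made. The extremes among them are given next as a description. TRAV13-1 with TRBV12-2 was seen in 12 members against 5.09 expected, with 2, 4, 2 and 4 in the libraries. TRAV16N with TRBV12-2+TRBV13-2 was seen in 16 against 8.81 expected. Below expectation, TRAV7D-2 with TRBV12-2+TRBV13-2 was seen in 1 member against 7.67, and TRAV16N with TRBV12-2 in 1 against 5.01. With D and N copies of TRAV merged by name, 154 of 167 pairs lay within 2-fold. This merging left some segments with a DV suffix apart from their copies.

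CDR3 lengths of the members were narrow and nearly the same in all libraries. Counted from the conserved cysteine to the closing phenylalanine or tryptophan, the most frequent length was 14 residues for both chains in each library, with 32.2% of alpha and 30.3% of beta chains at that length. Loops of 12 to 16 residues made up 93.2% of alpha and 91.6% of beta chains. The mean beta length was 13.98 and 13.76 residues for 5xFAD and 13.88 and 13.84 for 5xFAD;Cxcr6-/-. The mean alpha length was 13.62 and 13.73 against 13.71 and 13.67. The groups overlapped for both chains (exact permutation p = 1 for each).

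**Figure D3:**
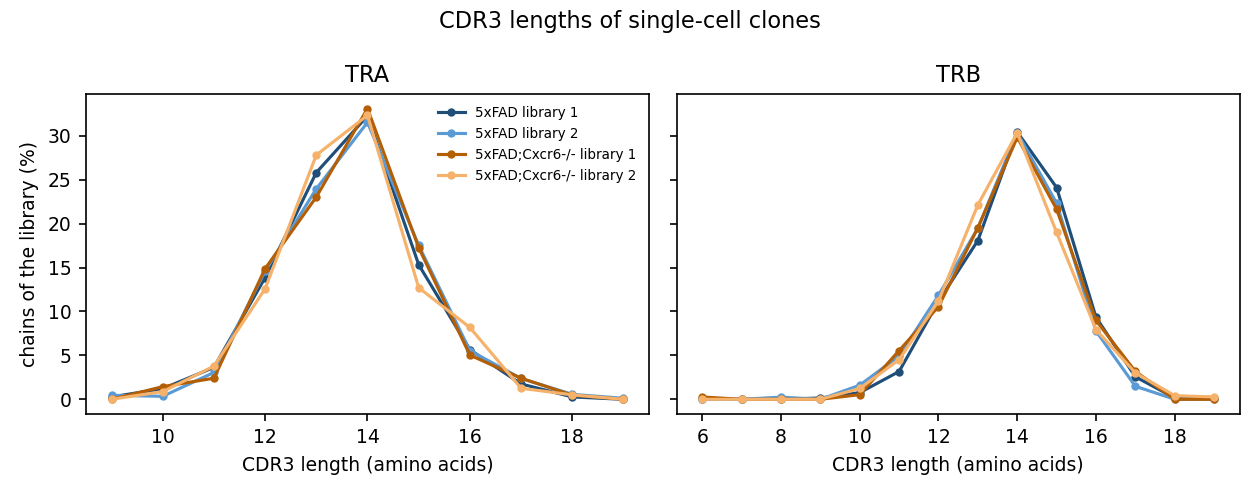
Share of chains (y axis, %) by CDR3 length in amino acids (x axis) for alpha (left) and beta (right) chains of single-cell clones, with 1 line per library. All 4 lines peak at 14 residues, with alpha peaks between 31.5% and 33.1% and beta peaks between 29.8% and 30.4%.

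The middle of the loop, without its first 3 and last 3 residues, was rich in small residues. Glycine made up 17.8% ± 0.426 of beta residues and serine 15.3% ± 0.485 (SD, n = 4 libraries). In alpha chains glycine was 17.8% ± 0.584, serine 15.2% ± 0.290 and asparagine 14.0% ± 0.480. edgeR called 0 of 38 residues between the genotypes (0% called), with 2 at an unadjusted p under 0.05, and DESeq2 gave 0 adjusted and 1 unadjusted. The smallest p belonged to beta phenylalanine, at 0.906% and 0.842% of residues for 5xFAD and 0.536% and 0.558% for 5xFAD;Cxcr6-/- (log2 -0.66, SE 0.24, edgeR adjusted p = 0.316). It was picked after its values were seen. The mean net charge of the beta loop's middle was -0.717 and -0.748 for 5xFAD and -0.755 and -0.777 for 5xFAD;Cxcr6-/- (exact permutation p = 0.333, the smallest possible, adjusted p = 0.963).

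Alpha chains had fewer bases outside V and J than beta chains. A median of 3 bases lay outside V and J in alpha chains and 10 in beta chains, where they include the D segment. Added bases alone were not measured in beta chains. The V end was whole, with no base trimmed, in 37.6% of alpha and 21.4% of beta chains, and the J start was whole in 23.4% and 28.3%. Of the bases outside V and J in alpha chains, 66.2% were G or C, as TdT is known to favour. Beta chains with TRBJ1 had a mean of 8.79 such bases and those with TRBJ2 had 10.4, a difference seen in each library.

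The first base after a whole V end was often the complement of the last V base, which is the definition of a P nucleotide. This held in 60.0% and 59.5% of alpha chains with a whole V end and an insert for 5xFAD, and in 50.0% and 64.6% for 5xFAD;Cxcr6-/-. In all it was 533 of 890 chains (59.9%, 95% Clopper-Pearson interval 56.6% to 63.1%). After a trimmed V end, where no hairpin end is left, the base complementary to the last V base followed in 23.4% of 1520 chains. A V end was read up to its last matching base, so the base after a trimmed end is never the next germline V base. The share after trimmed ends is therefore not an unbiased background. Beta chains gave 53.3% of 529 chains after a whole end and 20.1% of 1945 after a trimmed end. By base, T followed a whole alpha V end in A in 67.9% of 420 chains, C followed an end in G in 52.8% of 413, and G followed an end in C in 52.6% of 57.

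**Figure D4:**
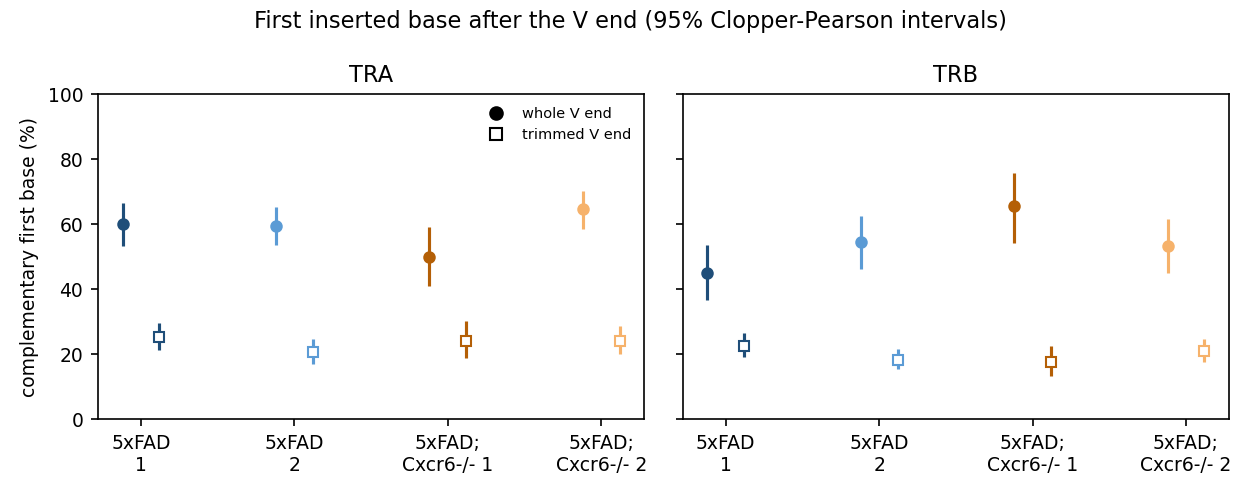
Share of chains (y axis, %) in which the first base after the V end is the complement of the last V base, by library (x axis), for alpha (left) and beta (right) chains with a whole V end (filled circles) or a trimmed one (open squares), with 95% Clopper-Pearson intervals. In each library the whole ends lie above the trimmed ends: 50.0% to 64.6% against 20.6% to 25.2% for alpha chains.

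Germline-like alpha chains were 14.7% (95% Clopper-Pearson interval 12.2% to 17.4%) and 15.7% (13.4% to 18.3%) of alpha chains for 5xFAD. They were 13.2% (10.1% to 16.8%) and 16.1% (13.6% to 18.8%) for 5xFAD;Cxcr6-/-, 431 of 2841 in all. Germline-like beta chains were 8.57% (6.52% to 11.01%) and 10.7% (8.64% to 13.1%) against 8.59% (5.91% to 11.97%) and 7.46% (5.62% to 9.67%), 222 of 2484 in all. The groups overlapped for both chains (exact permutation p = 1 for alpha and 0.667 for beta, adjusted p = 1 and 0.963). Of the germline-like beta chains 10 had no base outside V and J, and 180 had 3 or more, all of them found in a D segment. In an alternative, up to 2 palindromic P nucleotides were counted as germline, and at least 3 matched bases beyond the conserved codon were required at each end. The alpha shares then rose to 20.4%, 18.6%, 17.3% and 20.6% in the 4 libraries. The beta shares rose to 12.6%, 14.8%, 14.7% and 11.3%, with 5xFAD;Cxcr6-/- library 1 going from 31 to 53 chains. The main definition has no such minimum, so the rise belongs to both changes together.

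**Figure D5:**
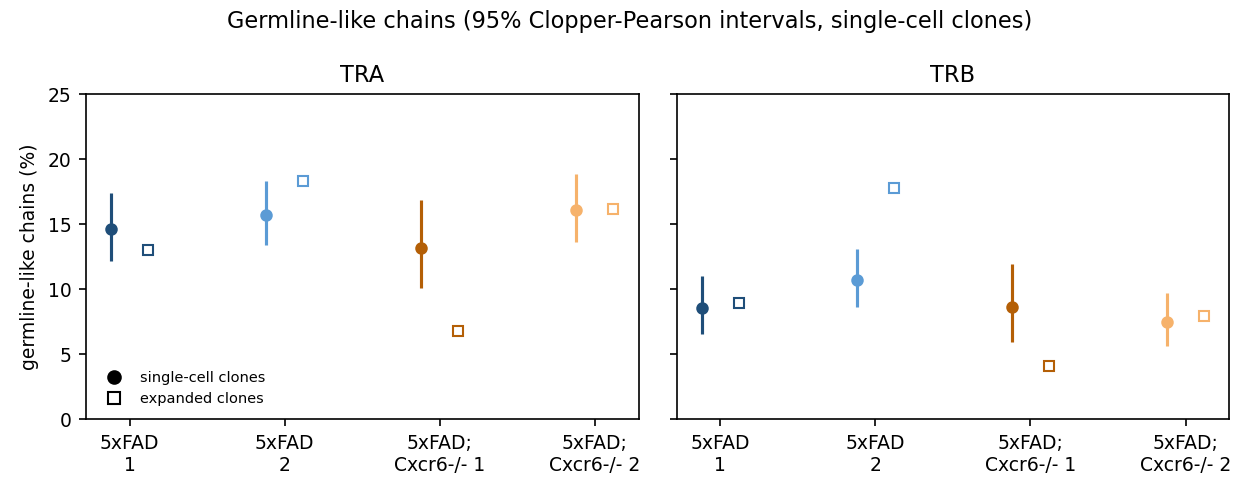
Share of germline-like chains (y axis, %) by library (x axis) for alpha (left) and beta (right) chains, with filled circles and 95% Clopper-Pearson intervals for single-cell clones and open squares for expanded clones, each clone counted once. The single-cell values lie between 13.2% and 16.1% for alpha and between 7.46% and 10.7% for beta chains.

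Germline-like chains recurred across libraries more often than other chains. Of 403 germline-like alpha chains distinct in V name, J name and CDR3 nucleotides, 14 (3.47%) were found in 2 or more libraries, against 12 of 2392 others (0.502%). Since near-identical V copies carry separate names, sequences were also compared by their letters alone, with a sequence called germline-like if it was so under any of its V names. Then 24 of 381 germline-like alpha nucleotide sequences (6.30%) were found in 2 or more libraries, against 27 of 2371 others (1.14%). As amino acids 60 of 360 (16.7%) and 71 of 2265 (3.13%) were. For beta amino-acid sequences it was 10 of 220 (4.55%) against 16 of 2217 (0.722%). None of the sequences compared was found in all 4 libraries. No test was made of these shares, since chains that recur were not independent draws.

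The most shared alpha loop was the one printed first above, whose amino acids are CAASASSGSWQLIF. It was found in 16 members from 3 libraries, under 7 V labels and in 5 nucleotide forms, 13 of the 16 germline-like. Those 16 members had 16 different beta chains with 10 TRBV segments. Germline-like alpha and beta chains met at about the rate their shares give: 34 members had both, against 36.3 expected from the shares within each library.

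Single-cell clones were last compared with the expanded clones of the same libraries, each clone counted once. This asks whether receptors of the unexpanded pool differ from those of the clones around them, and clone size itself is not tested. edgeR, with library as a block, called 1 of 150 segments (0.667% called), and 10 passed at an unadjusted p under 0.05. DESeq2 called 0, with 7 unadjusted. The called segment was TRBV20 (chromosome 6, 41188273 to 41188977), a beta V segment used by 22, 30, 18 and 21 members in the 4 libraries, or 3.31%, 3.70%, 4.75% and 2.87%. Expanded clones with it numbered 1, 0, 0 and 0 of 103, 192, 52 and 82, and the 0s allow shares of up to 1.56%, 5.77% and 3.66%. The pooled shares were 3.52% against 0.233%, a ratio of 15.1 with a counting interval of 2.64 to 603. That interval counts clones and leaves out the spread between libraries.

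For TRBV20 the fitted log2 difference was 3.76 (SE 0.89, edgeR adjusted p = 0.00419), a size that depends on how edgeR treats counts near 0. The call was lost with DESeq2 (adjusted p = 0.211), with at least 3 UMIs per chain (edgeR 0.250), without 5xFAD library 2 (edgeR 0.434) and without 5xFAD;Cxcr6-/- library 1 (edgeR 0.0933). Over 12 alternatives the log2 difference ran from 2.94 to 6.79 and the adjusted p from 0.00229 to 0.434. That this segment is scarce in expanded clones was already known from these data when the members were chosen, so the call is not independent evidence. The interaction of clone size with genotype gave 0 of 150 segments with edgeR, with 4 at an unadjusted p under 0.05.

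No loop feature passed the test between single-cell and expanded clones. edgeR called 0 of 38 residues (0% called), with 1 at an unadjusted p under 0.05, and DESeq2 gave 0 adjusted and 0 unadjusted. Of 11 single measures, the mean Kyte-Doolittle hydrophobicity of the beta loop's middle was the one on the same side in all 4 libraries. It was -1.24, -1.299, -1.297 and -1.31 in single-cell clones and -1.23, -1.09, -1.17 and -1.28 in expanded clones. The mean difference of -0.094 ± 0.091 (SD, n = 4) had an exact permutation p of 0.125, the smallest that 4 pairs allow, and an adjusted p of 0.917. Members with 2 alpha chains were 9.95% of single-cell and 13.0% of expanded clones, lower in 3 of 4 libraries (exact permutation p = 0.25, adjusted p = 0.917). Each expanded clone was represented by its cell with most UMIs over all chains, a choice that can favour cells with a second alpha chain. A single-cell clone leaves no such choice, so this comparison of shares is not an even one.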

How the data were processed

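The receptor libraries were 10x Chromium immune profiling libraries, per the labels' protocols. Cell Ranger 6.0 and mm10 are named in the submitters' processing notes, and the receptor reference is not given in the sources used here. Each deposited table gives, for every assembled contig, its V, D and J calls, its CDR3 and its unnormalized UMI count, per the file headers. All 12792 contigs were marked productive and part of a cell, so cells the submitters did not call were not used here.

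Groups came from the labels. Members and lists were chosen with earlier results of these data known. Each clone was represented by its cell with most UMIs, and every TRA of a clone was counted. Clone counts per segment, V-J pair or residue were tested with edgeR 4.0.16 in R 4.3.3 (quasi-likelihood F test, log of clone or residue totals as offset, Benjamini-Hochberg adjustment, threshold 0.05, at least 10 members per segment or pair), with DESeq2 1.42.0 as an alternative. The SE of an edgeR difference is its absolute value over the square root of F. Measures of 1 value per library were compared by exact two-sided permutation tests. P-values measure the spread between these libraries, which may be technical.

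Germline V, D and J ends were read from GENCODE vM21 transcripts (GRCm38). An alpha chain was germline-like when its V and J ends covered the CDR3 nucleotides; a beta chain also when the remaining bases were 1 run within TRBD1 or TRBD2. The 102 members with TRBV10, whose reference sequence could not be matched, were left out of germline measures, and TRBV12-2+TRBV13-2 was read as TRBV13-2. Scripts were tested on simulated data.

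Segments named were those called and the 3 TRBV, 3 TRAV, 2 TRBJ and 2 TRAJ labels most used. The 3 of each direction with the smallest p by genotype were also named. Pairs named were the 3 with most members and, of those with at least 5 expected, the 2 furthest above and below expectation on the same side in all libraries; some of these are omitted from the text. Sequences named were the 5 germline-like CDR3s of each chain in most libraries, then in most members, with ties in alphabetical order. Of the beta ones 4 are printed. The beta chain with the longest insert was also named. The first base after V, the D match, sharing by letters alone, the chains of 2-alpha members, the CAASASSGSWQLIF loop and beta phenylalanine were picked after their values were seen.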

Additional observations from a re-analysis of the deposited data

How the results depend on the processing

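Between genotypes, 0 segments, V-J pairs and residues were called under every alternative run: DESeq2, TMM scaling, no filter on low counts (segments and pairs), strict single clones, clones by shared TRB and TRA, 1 TRA only, at least 3 UMIs per chain, merged TRAV copies (segments) and each library left out. Replicate numbers of the labels share only a number: over 149 segments the deviations of same-numbered libraries correlated at -0.158. With the replicate number as a block 0 were called, and with the numbers crossed, an alternative chosen after seeing the data, also 0. For single clones against expanded clones, DESeq2 and at least 3 UMIs called 0 segments, TMM scaling 4 (all higher in single clones), shared TRB and TRA 2, no filter 2, and leaving out a library 0 to 1. The alternatives for the TRAV-TRAJ rank correlation and for the first base after V were also chosen after seeing the data: the mean TRAV-TRAJ rank correlation without 1 library ran from -0.47 to -0.44.

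Small log2 differences of the most used segments changed sign. TRAJ22 was 0.022 with strict single clones, TRAV13-1 was 0.33 with at least 3 UMIs, TRAV16N was 0.034 with 1 TRA, and TRAV6-6 was -0.17 with merged copies and -0.20 with at least 3 UMIs. Without 1 library, ranges were -0.14 to 0.12 for TRAJ22, -0.071 to 0.50 for TRAJ31, -0.45 to 0.090 for TRAV13-1, -0.31 to 0.12 for TRAV16N and -0.12 to 0.13 for TRAV6-6. They were -0.19 to 0.17 for TRBJ2-5, -0.11 to 0.022 for TRBJ2-7, -0.09 to 0.39 for TRBV12-2+TRBV13-2, -0.20 to 0.22 for TRBV19 and -0.39 to 0.26 for TRBV3.

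Differences of single values by genotype (5xFAD;Cxcr6-/- minus 5xFAD) that changed sign with at least 3 UMIs were alpha length (-0.033), alpha germline-like share (1.10 points), alpha bases outside V and J (-0.020) and beta bases outside (0.0041). Alpha length was -0.015 with 1 TRA. Without 1 library, ranges were -0.038 to 0.065 for alpha length, -1.99 to 0.922 points for alpha germline-like share, -0.125 to 0.093 for beta length, -0.271 to 0.082 for beta bases outside, -0.069 to 0.534 for effective TRBV and -2.73 to 0.192 points for 2-TRA share. Single minus expanded changed sign with 1 TRA for alpha length (-0.043), beta length (-0.025) and TRBJ2 share (-0.719 points). Under the P nucleotide alternative, which also set a minimum of matched bases, the beta germline-like share changed sign (0.930 points). Beta bases outside did so with at least 3 UMIs (0.015) and with shared TRB and TRA (0.0076). Without 1 library, ranges were -0.355 to 2.66 points for alpha germline-like share, -0.093 to 0.029 for alpha bases outside, -0.029 to 0.144 for beta length, -2.60 to 1.24 points for beta germline-like share, -0.105 to 0.172 for beta bases outside and -0.222 to 3.71 points for TRBJ2 share. The cause of these changes was not tested. With 2 libraries per genotype only large differences can be called, and clone size depends on how many cells were sampled.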
